A study of Zea mays with 32 samples.

Results

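The comparison sets slices 6 and 7 of the maize primary root against slices 4 and 5, the slices just nearer to the tip. It rests on 8 of the 32 RNA-seq libraries of the series, 4 from each side, taken by the slice number in their labels. The comparison itself was chosen with earlier results of these data known. All libraries come from Zea mays B73, wild type, at 7 DAG (days after germination). Plantlets grew on germination paper, 2 roots (A and B) were pinned side by side, and 16 sections were cut by hand from the tip towards the back. Slices 4 and 5 and slices 6 and 7 thus share genotype, age, treatment and root, and differ in distance from the tip. Each slice has 1 library from root A and 1 from root B (n = 2 per slice). Where nothing else is said, a level is in CPM, counts per 1000000 counts after TMM scaling between libraries.

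At the tip of a growing root, cells divide under the cover of the root cap. Cells that leave the dividing region stop cycling, enlarge their vacuoles and loosen their walls to lengthen, and later form root hairs and the secondary walls of the water-conducting vessels. A series of slices from tip to back therefore reads these stages in order of age. The labels give each slice a number and a place in that order, and assign no slice to a zone. The identifiers in the counts could not be paired with gene names here, so the defining markers of dividing, elongating, root hair or vessel cells were not looked up, and which stage slices 4 to 7 hold was not determined. A slice holds many cell types, so more cells of a type and more RNA per cell cannot be told apart.

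The 8 libraries held 1312528 to 2562822 counts (median 1720822), and 18850 to 19840 genes at a common depth of 1000000 counts, against 8262 to 19821 in the other 24 libraries. Slices 4 and 5 held 1312528 to 1896658 counts, slice 6 held 1680201 and 1669781, and slice 7 held the most, 2311757 and 2562822. The slice 7 libraries of the 2 roots were near copies of each other. Over genes with at least 10 counts in the pair, the chi-square statistic between their counts was 1.5 for each degree of freedom, while it was 8.79, 6.63 and 6.77 in slices 4, 5 and 6. Among genes with at least 1000 counts the values were 5.68 in slice 7 and 48.7 to 57.1 in slices 4 to 6. Across genes, log2 CPM in root A and root B correlated with an r of 0.979 in slice 7, and of 0.884, 0.931 and 0.932 in slices 4, 5 and 6. Since slice 7 differed by more than sampling noise, both libraries were kept, and the calls between slices 6 and 7 and slices 4 and 5 were repeated with them summed to 1 library. The replicates are 2 roots that were cut together, and p-values reflect the spread between this pair.

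In the fit over all 32 libraries, a small set of genes differed between the pairs of slices, most of them higher in slices 6 and 7. Of 19587 genes tested, 64 were higher (0.327%) and 14 lower (0.0715%), 78 in all (0.398%; edgeR's quasi-likelihood test with Benjamini-Hochberg adjustment, adjusted p under 0.05). The median log2 change was 2.04 in the genes that rose (1.19 to 8.88) and −3.55 in those that fell (−6.13 to −2.2), against 0 over all genes tested. Changes of at least 4-fold were found in 35 of the 64 and in 14 of the 14, and of at least 8-fold in 19 and 8. The last gene inside the threshold had an adjusted p of 0.0471 and the first outside it 0.0503. Of all genes tested, 1498 had an unadjusted p under 0.05 and 4027 had a fitted change of at least 2-fold, so most genes with a change of that size were not called.

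With the slice 7 libraries summed to 1, 32 genes were called, 30 higher and 2 lower, and all 32 belong to the 78. Their median log2 change was 2.77 for the genes that rose (1.39 to 8.92), and the 2 that fell changed by −4.56 and −5.06. All 78 kept their direction. On simulated data the dispersion step behind the 78 made more false calls than its nominal rate, and an older form did not. The older form called 77 genes (68 higher, 9 lower), of which 63 belong to the 78. With slice 7 summed it called 37 (36 higher, 1 lower). With the root as a block, which pairs the libraries of 1 root, 120 genes were called (100 higher, 20 lower), 77 of the 78 among them. Under DESeq2's size factors the median of all genes shifted by −0.15 (log2) and 45 genes were called, 31 higher and 14 lower, so that 68.9% of the calls were higher. The 8 libraries fitted alone, with slices as groups, called 1784 genes (936 higher, 848 lower), of which 52.5% were higher. As 2 groups they called 550 (350 higher, 200 lower), and 18 (10 higher, 8 lower) with slice 7 summed. The size of the set and its lean towards higher levels thus depended on the fit. In all of these settings more genes were higher than lower.

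The count of calls depended on each library. Leaving out 1 library of root A gave 17 calls for slice 4, 16 for slice 5, 32 for slice 6 and 30 for slice 7. Leaving out 1 library of root B gave 35 calls for slice 4, 30 for slice 5, 25 for slice 6 and 30 for slice 7. Leaving out slice 8 of root A, a library of another slice that holds 8262 genes at the common depth and shares the estimate of spread, raised it to 168 (140 higher, 28 lower), with all 78 genes among them.

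The genes that rose lay in the middle and upper range of expression. Their mean level had a median of 15.4 CPM in slices 4 and 5 (0 to 322) and of 106 CPM in slices 6 and 7 (9.08 to 990), against medians of 12.4 CPM on both sides over all genes tested. Over the 8 libraries, 58 of the 64 averaged 10 CPM or more and 24 averaged 100 CPM or more. Of all 10877 genes that averaged 10 CPM or more, 70 were called (0.644%). Summed over the 64 genes, the level was 2710 and 3020 CPM in slice 4 of roots A and B, 4450 and 4840 CPM in slice 5, 7930 and 7620 CPM in slice 6, and 17400 and 16600 CPM in slice 7. The sum thus climbed at each step in both roots, and no library of slices 6 and 7 lay within the range of slices 4 and 5. For 62 of the 64 genes the 4 libraries of slices 6 and 7 all lay above the 4 of slices 4 and 5, as they did for 1258 of all genes tested (6.42%). The genes were chosen for being higher in these same libraries, so the sums and this count are a description.

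The genes that fell were of middle level in slices 4 and 5 and of low level in slices 6 and 7. Their mean had a median of 28.8 CPM in slices 4 and 5 (12.4 to 227) and of 3.66 CPM in slices 6 and 7 (0.193 to 63.5). Summed over the 14 genes, the level was 1310 and 802 CPM in slice 4 of roots A and B, 702 and 380 CPM in slice 5, 205 and 150 CPM in slice 6 and 57.5 and 59.1 CPM in slice 7. The sum was lower in every library of slices 6 and 7 than in any of slices 4 and 5. The libraries of the 2 sides were apart in 9 of the 14 genes, and in this direction in 769 of all genes tested (3.93%). Here too the same libraries chose the genes, and the sums and this count are a description.

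**Figure D1:**
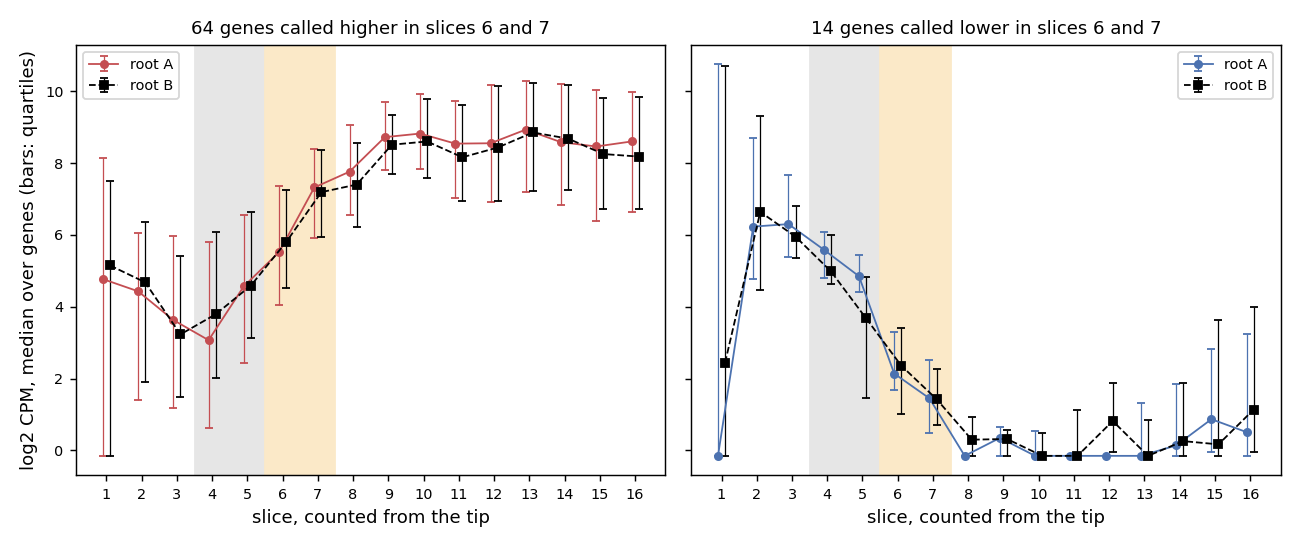
Median log2 CPM (y axis, prior count of 2; bars are the lower and upper quartiles over genes) in each slice counted from the tip (x axis) for the 64 genes that were higher and the 14 that were lower in slices 6 and 7, in roots A and B. Gray marks slices 4 and 5 and yellow slices 6 and 7, the slices compared to choose the genes. The genes that rose had their lowest medians in slices 3 and 4 (3.07 to 3.79) and had medians of 8.16 to 8.93 from slice 9 on, and the genes that fell had medians from −0.15, the value of no count, to 1.14 from slice 8 on.

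No gene was called by edgeR at a single step between neighbours among slices 4 to 7, where 2 libraries stand against 2. From slice 4 to 5, from slice 5 to 6 and from slice 6 to 7, edgeR called 0 genes (0% of those tested), with 209, 83 and 400 genes at an unadjusted p under 0.05, and DESeq2 called 0, 0 and 1. In the 64 genes that rose, the fitted log2 change had a median of 0.751 at the first step, 0.984 at the second and 1.29 at the third. For 38 of them the third step was the largest, for 18 the second and for 8 the first. In the 14 genes that fell, the medians were −0.623, −2.5 and −1.16, and the largest fall was the second step for 10, the third for 4 and the first for 0. In 53 of the 64 the level rose at all 3 steps in both roots, as it did in 748 of all genes tested (3.82%); these values come from the libraries that chose the genes and are a description.

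Slice 7 carried more of the calls than slice 6. Slice 6 alone against slices 4 and 5 gave 1 called gene, which rose and is among the 64, with 289 genes at an unadjusted p under 0.05. Slice 7 alone gave 236 (216 higher, 20 lower), 75 of the 78 among them. The slice 7 libraries are near copies, though they differed by more than sampling noise. Whether the spread within slice 7 is that of 2 separate roots was not tested. Slice 6, whose libraries are no near copies, went the same way in all 78 genes: the median log2 change from slices 4 and 5 to slice 6 was 1.38 in the genes that rose (0.531 to 7.8) and −2.77 in those that fell (−7.61 to −0.907). Slice 6 is part of the comparison that chose the genes, so this is no separate test. With both slice 7 libraries left out of the fit, edgeR called 0 genes between slice 6 and slices 4 and 5, with 246 at an unadjusted p under 0.05.

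The genes that fell did not all have their largest step at the same place in both roots. The largest fall lay between slices 5 and 6 in root A for 10 of the 14 genes and between slices 6 and 7 for 4. In root B it lay between slices 4 and 5 for 5, between slices 5 and 6 for 5 and between slices 6 and 7 for 4. In slice 5 the median of the 14 genes was 4.85 log2 CPM in root A and 3.68 in root B, while in slice 6 it was 2.14 and 2.36. Whether this offset exceeds the spread between roots was not tested, since 1 library stands for each root and slice. In the genes that rose, the largest step was the third in 39 of 64 genes in root A and in 40 in root B.

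Root A and root B shared the direction of change in all 78 genes, and in 66.3% of all genes tested; agreement between the roots makes a call more likely. The log2 change had a median of 2.26 in root A and 1.86 in root B for the genes that rose, and of −3.03 and −2.43 for those that fell. It was larger in size in root A for 49 of the 64 and 13 of the 14, and for 56.6% of all genes tested. Whether the change differed between root A and root B was tested over the 8 libraries, with root by pair of slices as 4 groups. The 2 slices of a pair stood in as replicates. The spread in this test thus holds the change from slice to slice within a root, and agreement of the roots cannot be read from it. The test called 0 of 15171 genes (edgeR, smallest adjusted p = 0.72), with 402 at an unadjusted p under 0.05, 1 of them among the 78. DESeq2 called 1 gene in that test. Without slice 6 of root A edgeR called 15 genes in it, and without slice 6 of root B 4.

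**Figure D2:**
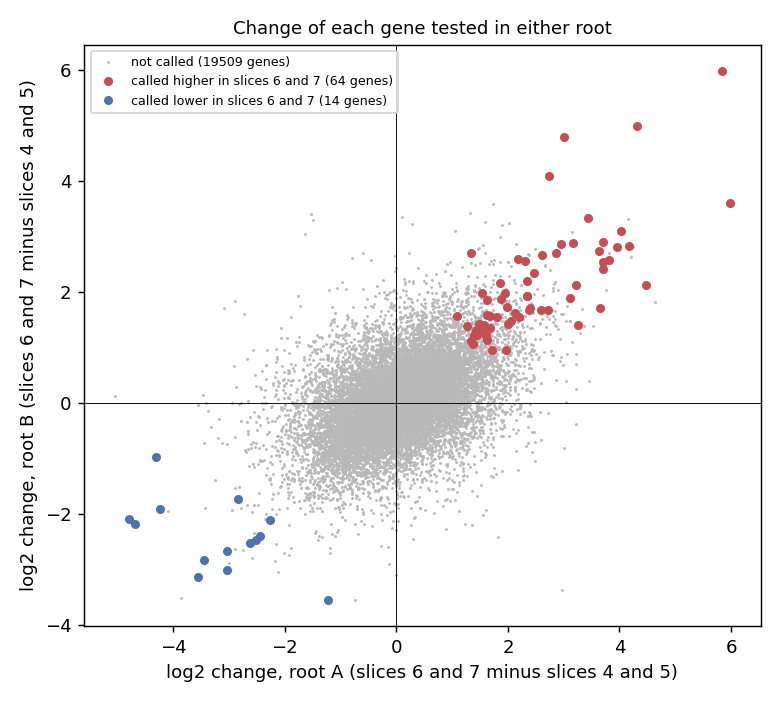
Log2 change from slices 4 and 5 to slices 6 and 7 in root A (x axis) and in root B (y axis), as differences of mean log2 CPM, with 1 point per gene tested. The 64 red and 14 blue genes are those called higher and lower, and all lie in the quadrants where the roots share a direction; the changes in root A ran from 1.08 to 5.98 in the red genes and from −4.8 to −1.22 in the blue ones.

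By the rule for naming, 58 genes that rose and 12 that fell were eligible: called, changed by 1 or more on the log2 scale, at 10 CPM or more on average over the 8 libraries, and alike in direction in root A and root B. The 2 highest and 2 lowest changes among them are given by identifier. Zm00001d052835 rose the most. It had no count in slice 4 of either root or in slice 5 of root A, and 0.464 CPM (1 count) in slice 5 of root B. In slice 6 it held 11.4 CPM (root A) and 25 CPM (root B), and in slice 7 it held 216 CPM (root A) and 188 CPM (root B). The 2 sides do not overlap, and slice 7 was higher than slice 6 in both roots.

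The mean of Zm00001d052835 was 0.116 ± 0.232 CPM in slices 4 and 5 and 110 ± 107 CPM in slices 6 and 7 (SD, n = 4 libraries each). On the log2 scale it changed by 8.88 ± 1.58 (SE; edgeR, adjusted p = 0.0104, and 0.0296 with slice 7 summed). With 1 count against 1121, the ratio was 939 with a 95% counting interval of 168 to 37100, which covers counting error alone. The call was lost, with adjusted p from 0.0539 to 0.12, without either library of slice 4, either library of slice 5 or the root B library of slice 6. Behind the comparison the level of Zm00001d052835 went on to 1630 and 1190 CPM in slice 9 of the 2 roots. In slice 13 it was at 43.6 and 70.1 CPM, and in slice 16 at 99.7 and 3.51 CPM, in roots A and B. The gene thus had its highest level in slice 9 and lower levels farther back.

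Zm00001d027500 showed the second highest change. It had no count in slice 4 of either root or in slice 5 of root B, and 1 CPM (2 counts) in slice 5 of root A. It held 10.3 and 11 CPM in slice 6 of roots A and B and 60.3 and 68.9 CPM in slice 7. The roots were close to each other in slice 6 and in slice 7, and the 2 sides do not overlap. It changed by 7.24 ± 1.11 on the log2 scale (SE; edgeR, adjusted p = 0.00084, and 0.00301 with slice 7 summed), and the ratio of 379 to 2 counts was 159 with a 95% counting interval of 43.6 to 1310. The call on Zm00001d027500 held without each of the 8 libraries in turn. The gene was highest in slice 9, at 148 and 124 CPM in roots A and B, and was at 17.2 and 17 CPM in slice 11. Behind that it was higher again, at 90.9 and 40 CPM in slice 12 and 35 and 84.1 CPM in slice 13.

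Zm00001d022289 had the largest fall among the genes that met the rule. In slice 4 it was at 51.4 CPM (root A) and 24.9 CPM (root B), and in slice 5 at 21.5 CPM (root A) and 0.927 CPM (root B). In slice 6 it held 1.08 and 0.5 CPM, and in slice 7 no count in root A and 0.725 CPM in root B. Slice 5 of root B had thus already reached the level of slices 6 and 7, so the 2 sides overlap. Its log2 change came to −5.08 ± 0.8 (SE; edgeR, adjusted p = 0.00084, and 0.00352 with slice 7 summed), but without slice 5 of root A it was −3.32 with an adjusted p of 0.982. This gene came back farther from the tip: after 3800 and 3390 CPM in slice 1 and no count in slice 8 of either root, it rose to 169 and 159 CPM in slice 13 and 178 and 168 CPM in slice 16.

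Zm00001d041985 was at 281 and 116 CPM in slice 4 of roots A and B, and in slice 5 at 45 CPM (root A) and 0.927 CPM (root B). It held 1.62 and 1.5 CPM in slice 6 and 5.71 and 3.99 CPM in slice 7. In root B its fall again came 1 slice nearer to the tip, and slice 5 of root B lay below all 4 libraries of slices 6 and 7. Its log2 change came to −4.58 ± 0.73 (SE; edgeR, adjusted p = 0.0028, and 0.0296 with slice 7 summed). The call was lost without slice 5 of root A (log2 change −2.3, adjusted p = 1), and without either library of slice 6, with adjusted p of 0.0763 (root A left out) and 0.077 (root B left out). It was also lost with an older form of the dispersion step together with slice 7 summed (adjusted p = 0.287). Unlike Zm00001d022289, it held 0 to 5 counts in each library from slice 8 on. Whether near-identical genes share reads with these 4 was not looked up.

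**Figure D3:**
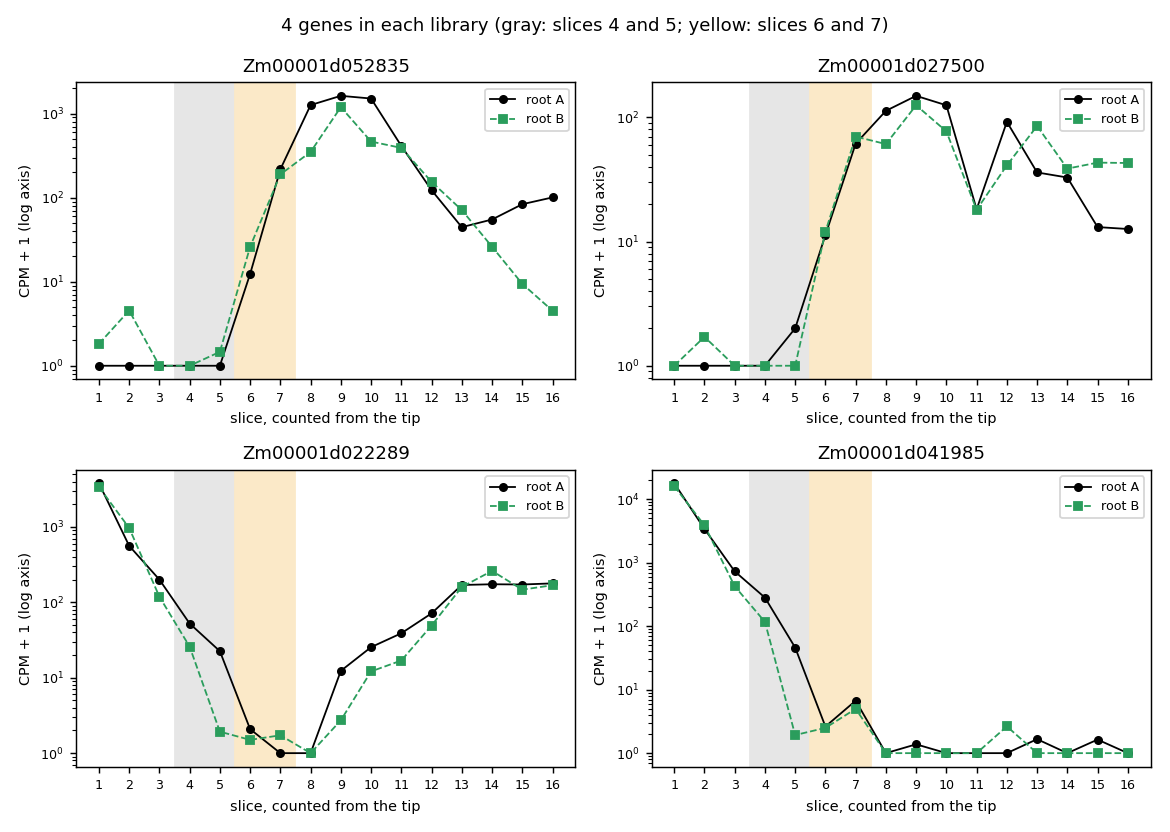
Level of the 4 genes in every library, as CPM + 1 on a log axis (y) against the slice counted from the tip (x), in roots A and B. Gray marks slices 4 and 5 and yellow slices 6 and 7. Both genes that rose, in the upper row, were highest in slice 9 of both roots, and of those that fell Zm00001d022289 rose again from slice 9 on.

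The same genes were followed in slices outside those compared. Their libraries were in the same fit, so their spread and the shared filter bore on which genes were called. Genes of low spread are more readily called in both comparisons, and the shares over all genes were not matched for spread. Slices 9 and 10 against slices 2 and 3 lie on either side of slices 4 to 7 and share no library with the comparison. All 64 genes that rose were also called higher there, against 18.3% of all genes tested, and all 14 that fell were called lower, against 16.5% (edgeR, adjusted p under 0.05). Over the genes that averaged 10 CPM or more in slices 4 to 7, to which 70 of the 78 belong, the shares were 20.6% and 18.6%. The median log2 change across this wider gap was 4.45 in the 64 (1.68 to 11.8) and −8.12 in the 14 (−13.6 to −4.59), and it was larger in size than in slices 4 to 7 for 63 of the 64 and 13 of the 14, against 81.7% of all genes tested. Zm00001d052835 changed there by 11.78 ± 1.32 and Zm00001d027500 by 9.52 ± 1.03 (log2, SE; edgeR, adjusted p = 9.53e-07 and 2.2e-08). Zm00001d022289 changed by −5.07 ± 0.51 and Zm00001d041985 by −13.62 ± 1.04 (adjusted p = 2.1e-09 and 2.96e-09). All 78 were also called when the 24 other libraries were fitted with slices 4 to 7 left out, against 14.3% of genes higher and 13.6% lower. The spread in those 24 libraries was part of what chose the 78, so this is no separate test. Other slices of the same 2 roots are not independent of slices 4 to 7.

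The overlap was counted in 5 other settings. All 32 genes called with slice 7 summed and all 168 called without slice 8 of root A were called in the same direction in slices 9 and 10 against slices 2 and 3 under the same setting. With DESeq2's size factors it was 31 of the 31 that rose and 14 of the 14 that fell, with the older dispersion step 67 of 68 and 9 of 9, and with the root as a block 99 of 100 and 18 of 20.

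**Figure D4:**
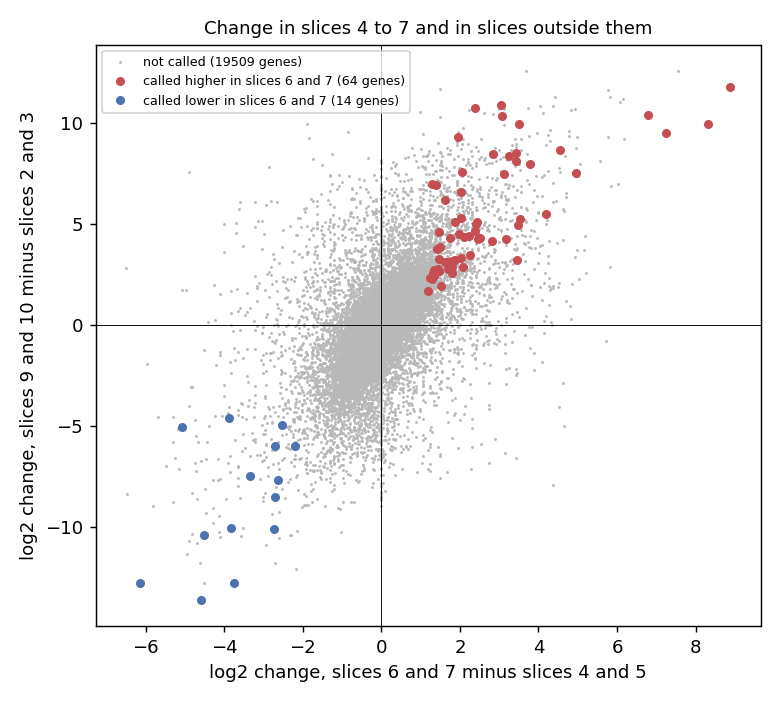
Log2 change from slices 4 and 5 to slices 6 and 7 (x axis) and from slices 2 and 3 to slices 9 and 10 (y axis), with 1 point per gene tested; the 2 axes share no library. The 64 red genes called higher in slices 6 and 7 lie between 1.68 and 11.8 on the y axis and the 14 blue genes called lower between −13.6 and −4.59.

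Farther back the genes that rose parted ways. The slice of highest mean level lay in slices 9 to 12 for 24 of the 64 genes (against 19.3% of all genes tested). It lay in slices 13 to 16 for 37 (against 24.6%) and in slices 4 to 7 for 0. Slice 13 (20 genes, against 6.89%) and slice 9 (14 genes, against 4.5%) were the most frequent. For 38 of the 64 the highest slices of the roots lay within 1 slice of each other (against 43.7%). From slices 9 and 10 to slices 13 and 14, 10 of the 64 rose further (15.6%, against 6.27% of all genes tested), and 9 fell (14.1%, against 2.85%), with a median log2 change of 0.112 (−4.62 to 3.45). Of the 14 genes that fell, 2 rose there and 0 fell. This last comparison called 1788 genes in all, and 1019 or 938 when slice 13 or slice 14 of root A was left out. It called 1073 or 1146 when the root A or root B library of slice 9 was left out, and 873 when slice 10 of root B was.

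Nearer to the tip, part of the genes that rose in slices 6 and 7 were also high in slice 1. The 64 genes had their lowest medians in slices 3 and 4, at 3.63 and 3.07 log2 CPM in root A and 3.23 and 3.79 in root B, against 4.77 and 5.15 in slice 1. Slices 1 to 3 lie outside the slices compared, but their libraries shared the fit and the filter behind the calls. In slice 1 against slices 2 and 3, 29 of the 64 were higher in slice 1 (45.3%, against 11.8% of all genes tested) and 5 were lower (against 10.6%). Over genes that averaged 10 CPM or more it was 29 of 58, against 11.2%. Another 18 of the 64 had no count in either library of slice 1, as did 15.3% of all genes tested, so the group held genes both high at and without a count at the tip. Without slice 1 of root A, a library of few genes, fewer of the 64 were called higher in slice 1. Fewer of all genes tested were called higher there as well, so both shares fell. That fit leaves 1 library in slice 1.

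The genes that fell also differed among themselves in slice 1. Against slices 2 and 3, 5 of the 14 were higher in slice 1 (against 11.8% of all genes tested) and 8 lower (against 10.6%), and 5 had no count in either library of slice 1 (against 15.3%). The highest mean level lay in slice 1 for 5 of the 14, in slices 2 and 3 for 6, in slices 4 and 5 for 2 and in slices 13 to 16 for 1. From slice 8 on their median lay between −0.15 and 1.14 log2 CPM in every library, where −0.15 is the value of no count.

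Of the identifiers of the GRMZM5G series, 140 were among the genes tested and 0 were called, with 0.398% of all genes called. Their share of all counts was 2.72% to 3.97% in slices 4 and 5 and 2.17% to 3.77% in slices 6 and 7, so the ranges of the 2 sides overlap.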

How the data were processed

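RNA was measured in 32 libraries, 1 per slice and root, made with a kit that amplifies cDNA, per the labels' protocols. The authors deposited counts, whole numbers for 39510 identifiers. Trimmomatic, kallisto 0.43 and DESeq2 are named, without roles, in the submitters' processing notes. Build, annotation, strand use and rounding were not given in the sources used here. Reads of near-identical genes may be split between them. The labels mention no molecular identifiers, so reads may not be independent molecules and the intervals cover no more than counting error. None of the identifiers matched the RefSeq table used here (0 of 39510; Zm-B73-REFERENCE-NAM-5.0, with 49888 genes), so the 42 gene lists were not tested and at most 2 genes that rose and 2 that fell are given by identifier. No columns were left without a sample (0).

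The test was edgeR's (4.0.16, in R 4.3.3), with TMM scaling. The filter was filterByExpr by slice at its count of 10 and total of 15, and 19587 genes passed. The fit was the robust quasi-likelihood fit with its newer dispersion step, 16 slices as groups over 32 libraries, no block. The contrast was the mean of slices 6 and 7 minus that of slices 4 and 5. The SE is the size of the log2 change over the square root of F; log2 CPM used a prior count of 2. On simulated data the newer step made more false calls than its nominal rate and the older step did not, so both are given. The simulated libraries were independent and held no near copies like those of slice 7, so the rates need not hold in these data. DESeq2 1.42.0 was an alternative. The letter a or b in the labels was read as root A or root B in every slice, which pairs the libraries. Deviations of slices 4 to 7 of a root from their slice means correlated with a median of 0.136 over 6 pairs (−0.00608 to 0.341), 3 of them over 0.1. The comparison, the gene lists and the naming rule were chosen with earlier results of these data known. The comparisons with slice 1 and with slices 13 and 14 were added after the data were seen.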

Additional observations from a re-analysis of the deposited data

How the results depend on the processing

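Calls between slices 6 and 7 and slices 4 and 5 numbered 78 (64 higher, 14 lower) and moved widely, while all of the 78 genes that were tested kept their direction in each alternative. They were 45 (31, 14) with DESeq2's size factors, 173 (150, 23) with DESeq2's own test, 133 (99, 34) with no filter on low counts, 84 with genes of at least 10 CPM, 77 (68, 9) with the older dispersion step, 120 (100, 20) with the root as a replicate block and 32 (30, 2) with slice 7 summed. Without slices 1, 8 and 12 of root A, the libraries of fewest genes, they were 391 (303, 88). The 8 libraries alone gave 1784 (936, 848) with slices as groups and 529 (316, 213) with slice 7 summed; as 2 groups they gave 550 (350, 200), 771 (476, 295) with a replicate block and 18 (10, 8) with slice 7 summed. Root A alone gave 141 (94, 47) and root B alone 21 (16, 5). Slice 6 alone gave 1 (1, 0), slice 7 alone 236 (216, 20), slices 6 and 7 against slice 5 gave 0 (0, 0) with 503 at an unadjusted p under 0.05, and against slice 4 gave 49 (28, 21). Slice 6 with slice 7 out of the fit gave 0 (0, 0). Slice 7 summed and slice 8 of root A left out gave 97 (89, 8); the older step gave 37 (36, 1) with slice 7 summed and 163 (148, 15) without slice 8 of root A. Leaving out 1 library gave 16 to 168 calls, 14 to 140 higher and 0 to 28 lower; a slice with 1 library left is assumed to vary like the others. Combinations of settings and the fits with slice 7 out or summed among the 8 libraries were chosen after seeing the data. The causes of these movements were not tested.

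Single steps stayed at 0 except from slice 4 to 5 (9 with no filter, 0 to 2 with 1 library left out), slice 5 to 6 (3 with no filter, 0 with each library left out) and slice 6 to 7 (10 with no filter, 1 with DESeq2, with a replicate block and without the 3 libraries, 0 to 1 with 1 library left out). The difference between roots, 0 genes, became 1 with DESeq2 and with no filter and 0 to 15 with 1 library left out. Slices 9 and 10 against slices 2 and 3 gave 6817 calls, 4405 with genes of at least 10 CPM and 5081 to 7911 with 1 library left out. Slices 13 and 14 against slices 9 and 10 gave 1788, then 710 with genes of at least 10 CPM, 953 with the older step, 3618 without the 3 libraries and 873 to 2670 with 1 left out. Slice 1 against slices 2 and 3 gave 4396, and 1962 to 5383 with 1 left out. The 4 genes named kept their direction in all 124 alternatives in which they were tested, and their call in 89. Zm00001d022289 was tested in 29, Zm00001d041985 in 31 and each of the others in 32. Neither gene that fell was among those tested with root B alone.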
